A study of Mus musculus with 2 samples.

Results

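Eicosanoids and platelet-activating factor (PAF) are lipid mediators that cells cut from their membrane phospholipids and release to act on neighbouring cells. This account follows 43 genes of these pathways, the enzymes that make the mediators, the enzymes that break them down and the receptors that sense them, in the epididymal fat of Iah1-deficient mice. A gene was taken when the platform annotation gave its symbol to a probe set, a group of short oligonucleotides that together measure the transcripts of one gene. By this rule 40 genes were found, and Pla2g16 was found under its current symbol Plaat3, so that 41 genes with 1 probe set each were described, out of 19505 genes with a symbol on the array. Ptgs1 and Fpr2 carry no probe set with their symbol in the annotation used here and were not analysed here. They comprised 20 synthesis enzymes, 9 breakdown enzymes and 12 receptors.

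Both groups were male mice of the consomic strain A/J-12SM, in which chromosome 12 of SM/J replaces that of A/J. WT_A12 mice carried intact Iah1, and KO_A12 mice were homozygous for a CRISPR/Cas9 deletion in all tissues that shifts the reading frame of Iah1, an esterase gene. The KO_A12 mice came from 1 line bred from homozygous parents, while the controls were mice of the parent strain and not littermates. All mice received standard chow until 6 weeks of age and then a high-fat diet for 12 weeks, and were killed at 18 weeks of age after a 4 h fast. RNA of epididymal fat from 3 mice per genotype was pooled and hybridized to 1 Clariom S Mouse Array per genotype. No spread between mice or arrays can therefore be computed, the differences below come without a replicate check and without p-values. In bulk tissue, fewer cells of a type and less RNA per cell cannot be told apart.

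All values are signals on the log2 scale, and a difference is the KO_A12 value less the WT_A12 value. By the cutoffs the study used, a gene was called lower at a difference under -1 with a WT_A12 signal over 7, and higher at a difference over 1 with a KO_A12 signal over 7. The background control probe sets, which match no mouse transcript, had median log2 signals of 5.75 for WT_A12 and 5.61 for KO_A12, and their highest values were 7.14 and 7.21. Pairs of signals are given below with WT_A12 first. Iah1 itself had log2 signals of 9.52 for WT_A12 and 8.35 for KO_A12, a KO_A12 signal of 44.4% of WT_A12 and above the highest background control. This signal does not measure how much intact Iah1 transcript was left in the KO_A12 mice. White adipocyte markers were strong on both arrays, with log2 signals of 18.22 and 18.31 for Adipoq, the adiponectin gene. All 13 measured hepatocyte markers and all 7 measured seminal vesicle genes had a higher signal in the KO_A12 pool, while 9 of 10 testis germ cell genes had a lower one (median -1.27). Of these, 3 hepatocyte markers and 6 testis genes had a signal of 7 or less on both arrays. The 2 testis genes with a signal over 7 on both arrays had a median of -0.50. Transcripts of other organs thus differed between the pools in both directions.

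The synthesis of these mediators starts with phospholipases A2, which free arachidonic acid. Cyclooxygenases and a set of terminal synthases turn it into prostaglandins, prostacyclin and thromboxane, and lipoxygenases turn it into leukotrienes and related acids. PAF is itself a phospholipid, made by acetylation of its lyso precursor and inactivated when an acetylhydrolase removes the acetyl group. In fat, prostaglandin E2 made by adipocytes restrains lipolysis, and macrophages that enter fat in obesity make prostanoids and leukotrienes and carry the PAF receptor.

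The 4 genes with the lowest differences among those with a WT_A12 signal over 7 were Tbxas1, Ptafr, Hpgds and Pla2g7. The 250 bases before their start sites are shown. GAGGAA is marked because promoters of myeloid genes often hold this core, bound by PU.1, a transcription factor of the myeloid lineage. The sequences are from RefSeq (GRCm38.p6), in the direction of transcription, with GAGGAA on either strand in capitals (TTCCTC where it lies on the opposite strand).
Tbxas1, chr6:38918736-38918985, plus strand: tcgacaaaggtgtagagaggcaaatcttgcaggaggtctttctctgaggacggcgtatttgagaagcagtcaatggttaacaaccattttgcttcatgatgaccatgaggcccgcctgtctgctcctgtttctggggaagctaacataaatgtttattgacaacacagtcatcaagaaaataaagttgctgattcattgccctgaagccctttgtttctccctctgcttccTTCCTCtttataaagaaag
Ptafr, chr4:132563817-132564066, plus strand: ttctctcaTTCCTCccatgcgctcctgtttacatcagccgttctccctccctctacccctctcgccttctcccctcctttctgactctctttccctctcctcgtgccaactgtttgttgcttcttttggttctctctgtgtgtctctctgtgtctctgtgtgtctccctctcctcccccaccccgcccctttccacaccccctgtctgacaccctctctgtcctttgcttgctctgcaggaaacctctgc
Hpgds, chr6:65144731-65144980, minus strand: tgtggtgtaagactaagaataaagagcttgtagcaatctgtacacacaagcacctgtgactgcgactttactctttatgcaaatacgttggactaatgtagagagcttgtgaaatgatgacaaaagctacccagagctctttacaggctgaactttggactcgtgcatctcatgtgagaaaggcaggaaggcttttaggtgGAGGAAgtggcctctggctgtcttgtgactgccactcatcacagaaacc
Pla2g7, chr17:43568201-43568450, plus strand: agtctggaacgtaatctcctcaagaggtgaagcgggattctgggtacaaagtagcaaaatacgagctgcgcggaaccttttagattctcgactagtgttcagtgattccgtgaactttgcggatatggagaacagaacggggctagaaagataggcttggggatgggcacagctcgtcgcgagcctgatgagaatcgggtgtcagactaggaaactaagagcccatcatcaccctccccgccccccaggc
The motif stood 19 bases before the start site in Tbxas1, 49 in Hpgds and 242 in Ptafr, and these letters were not in the Pla2g7 window. In Hpgds it was part of the longer match GAGGAAGT. The start site used in the Tbxas1 window lay 54827 bases inside the annotated gene, and those of Hpgds and Pla2g7 lay 251 and 457 bases inside, so that transcripts from other starts are not covered. Of all 32851 RefSeq windows of this length, those of non-coding genes included, 23.25% held GAGGAA and 2.44% held GAGGAAGT, which overlaps it. Among the pathway genes, 34 had 44 windows, of which 17 held GAGGAA (38.64%) and 2 held GAGGAAGT. A match is a run of letters and not a measured binding site. The 4 windows shown were chosen by the differences in these same data. Whether PU.1 has a part in the signals of these genes was not tested.

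Of the 41 genes, 2 were called lower in the KO_A12 pool and 0 were called higher. Among all 19572 probe sets with a symbol 0.777% were called lower and 0.536% higher, so that the share of 4.88% called lower rests on 2 genes. At 1.5-fold with the same signal cutoffs, 4 genes were lower (9.76%, against 3.82% of all probe sets) and 1 was higher (2.44%, against 2.14%). A difference below 0 was found for 24 of the 41 genes, or 58.54% against 50.1% of all probe sets. The median log2 difference was -0.11, beside -0.0012 for all probe sets with a symbol. For the 26 genes with a signal over 7 on both arrays, 17 differences were below 0 (65.38%, against 55.9% of all probe sets above this signal) and the median was -0.18, beside -0.04. The other 15 genes had signals of 7 or less on both arrays, within the range of the background controls, and their differences are uncertain in size and direction. For all 8920 probe sets with a signal over 7 on both arrays, the central 95% of the log2 differences lay between -0.83 and 0.63.

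**Figure D1:**
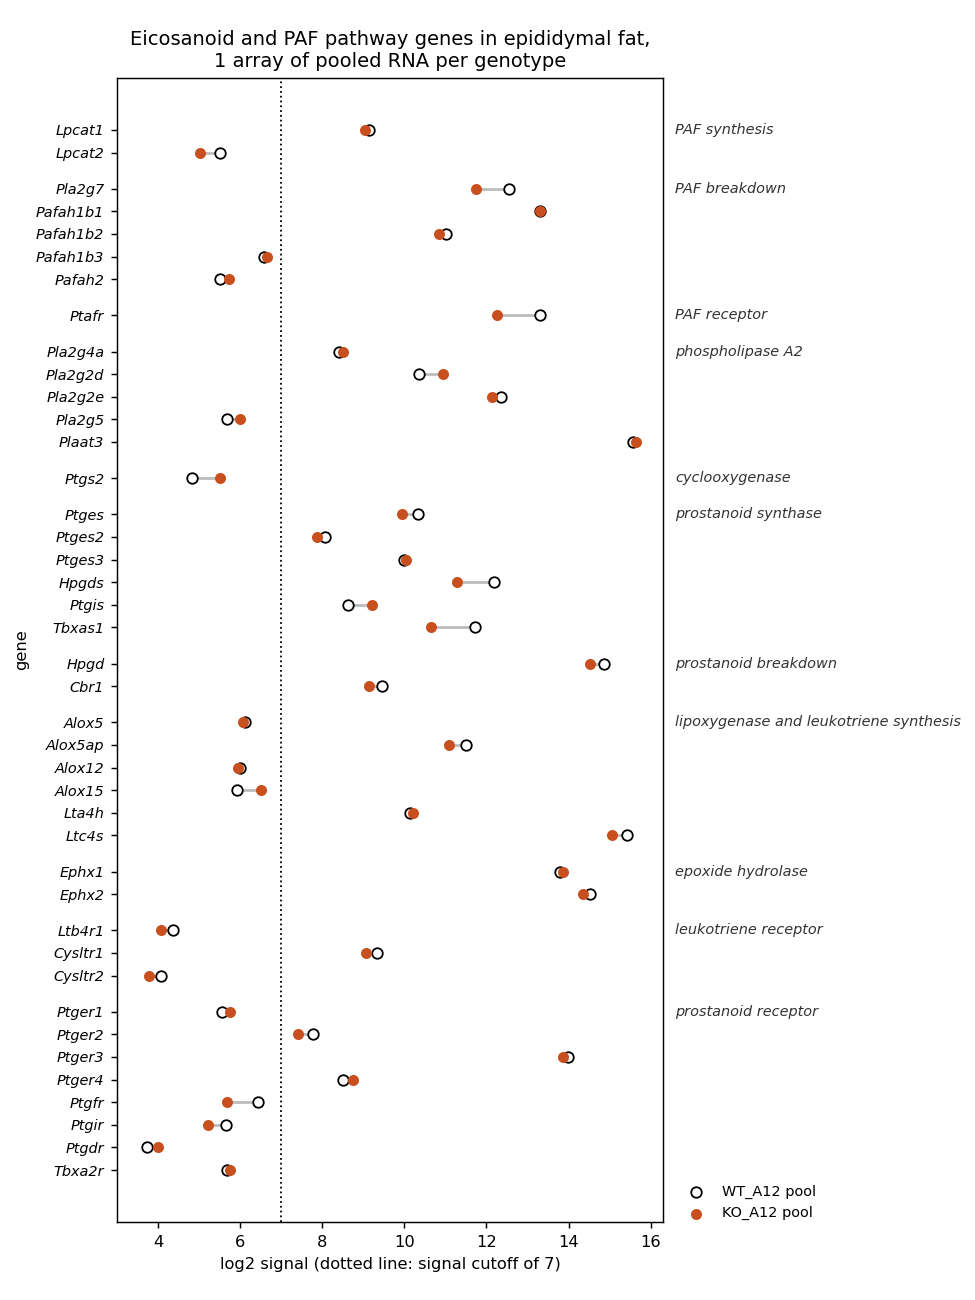
Log2 signals (horizontal axis) of the 41 pathway genes (vertical axis, grouped by role) for WT_A12 (open circles) and KO_A12 (filled circles), with the signal cutoff of 7 as a dotted line. The widest gaps above the cutoff are those of Tbxas1, Ptafr, Hpgds and Pla2g7, where the KO_A12 signal is the lower one.

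Ptafr, the receptor through which PAF activates macrophages and neutrophils, gave a log2 signal of 13.30 for WT_A12 and of 12.25 for KO_A12. Its KO_A12 signal was 48.2% of the WT_A12 signal, and it was the only receptor to pass the cutoffs. The study picked Ptafr from these same arrays for further measurement, so that its place among the lower genes is not independent evidence. With 1 array per genotype, its difference has no replicate check within the arrays. The study measured Ptafr again in epididymal fat by real-time qPCR, another way to measure transcripts, and that outcome is not reported here. The array value alone does not establish a lower Ptafr transcript. Pla2g7 encodes the secreted PAF acetylhydrolase, which macrophages release and which travels on lipoproteins. Its log2 signals were 12.55 and 11.74, a KO_A12 signal of 57.2% of WT_A12, lower at 1.5-fold but short of the 2-fold cutoff. Its difference of -0.81 lies just inside the central 95% of all probe sets with a signal over 7 on both arrays. The receptor for PAF and its secreted inactivating enzyme thus both had lower signals in the KO_A12 pool.

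Among the intracellular acetylhydrolase genes, only Pafah1b1 and Pafah1b2 had signals over the cutoff, and neither differed by 1.5-fold. Pafah1b1, the regulatory subunit also known as LIS1, a partner of the dynein motor, had log2 signals of 13.30 and 13.31. Pafah1b2, a catalytic subunit, had 11.00 and 10.85, a difference of -0.15. The other catalytic subunit Pafah1b3 (6.58 and 6.66) and Pafah2, which acts on oxidized phospholipids (5.50 and 5.73), were under the signal cutoff on both arrays. Of the acyltransferases that can make PAF, Lpcat1 had log2 signals of 9.14 and 9.03, a difference of -0.10. Lpcat2, the enzyme of stimulated inflammatory cells, had 5.51 and 5.02, under the cutoff on both arrays.

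Of the 5 phospholipases A2, 4 had a difference above 0 and none passed the 2-fold cutoff. Plaat3, the adipocyte phospholipase known as AdPLA, had log2 signals of 15.56 and 15.63. Pla2g4a, the cytosolic phospholipase that releases arachidonic acid on calcium signals, had 8.41 and 8.50. The pools were thus close in Plaat3 and Pla2g4a. Pla2g2d, a secreted phospholipase of dendritic cells and macrophages, had 10.36 and 10.95, a KO_A12 signal 1.51-fold that of WT_A12, and was the 1 pathway gene counted as higher at 1.5-fold. Its difference of 0.59 lies inside the central 95% of all probe sets with a signal over 7 on both arrays. The secreted enzymes Pla2g2e and Pla2g5 are made by mouse adipocytes in obesity. Pla2g2e had log2 signals of 12.36 and 12.14, and Pla2g5 had 5.68 and 6.01, under the cutoff on both arrays.

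In the prostanoid branch the synthases went in both directions. Tbxas1, thromboxane synthase of platelets and macrophages, had log2 signals of 11.73 and 10.65, so that the KO_A12 signal was 47.3% of the WT_A12 signal and the gene was called lower. Hpgds, the hematopoietic prostaglandin D2 synthase of macrophages and mast cells, had 12.19 and 11.27, a KO_A12 signal of 53.1%. These 2 enzymes make different products from the same intermediate, prostaglandin H2, in cells of the blood lineage. Ptges, the inducible microsomal prostaglandin E synthase, was less far apart, with log2 signals of 10.34 and 9.93 and a difference of -0.41. Ptges2 had 8.06 and 7.87, and Ptges3, which is also the heat shock protein co-chaperone p23, had 9.98 and 10.04. Ptgis, prostacyclin synthase of vessel walls and stromal cells, went the other way with 8.64 and 9.21, a KO_A12 signal 1.49-fold that of WT_A12. Its difference of 0.57 lies inside the central 95% of all probe sets with a signal over 7 on both arrays. Of the cyclooxygenases only Ptgs2, the inducible one, was measured, and its log2 signals of 4.82 and 5.51 lay under the background median, so that its difference of 0.69, the highest of the 41, is not interpretable as a change of the transcript.

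Both enzymes that end prostaglandin signals had lower signals in the KO_A12 pool without passing a cutoff. Hpgd, which oxidizes prostaglandins to inactive keto forms, had log2 signals of 14.86 and 14.51. Cbr1, a carbonyl reductase that acts on prostaglandin E2 and many other carbonyls, had 9.46 and 9.14. Their differences of -0.34 and -0.32 lie well inside the central 95% of all probe sets.

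**Figure D2:**
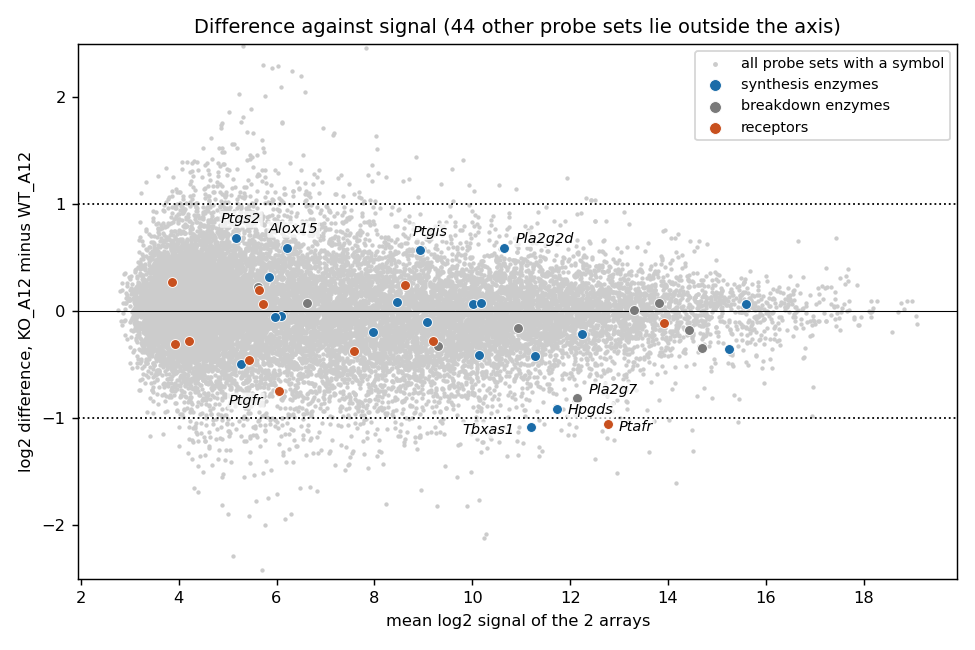
Log2 difference, KO_A12 minus WT_A12 (vertical axis), against the mean log2 signal of both arrays (horizontal axis) for all probe sets with a symbol (grey) and the 41 pathway genes (coloured by class), with dotted lines at the 2-fold cutoffs. Tbxas1 and Ptafr lie under the lower line, Hpgds and Pla2g7 just above it, and no pathway gene lies above the upper line. The 44 probe sets outside the axis are not shown.

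Leukotriene synthesis showed smaller differences. Alox5, the lipoxygenase that starts it, had log2 signals of 6.12 and 6.08, under the cutoff on both arrays. Alox5ap, the membrane protein FLAP that hands arachidonic acid to it, was measured well, at 11.49 and 11.08, a KO_A12 signal of 75.1% of WT_A12. Lta4h, the hydrolase that forms leukotriene B4 and is found in most cell types, had 10.13 and 10.22. Ltc4s, the synthase of the cysteinyl leukotriene C4 and a relative of FLAP, had 15.42 and 15.07, a KO_A12 signal of 78.4%. Alox5ap and Ltc4s were thus lower by similar amounts, and neither reached 1.5-fold. The lipoxygenases Alox12, of mouse platelets and skin (5.99 and 5.94), and Alox15, of mouse resident peritoneal macrophages and eosinophils (5.91 and 6.51), were under the cutoff on both arrays.

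The epoxide hydrolases, which open the epoxides that cytochrome P450 enzymes make from arachidonic acid, were close in both pools. Ephx2, the soluble enzyme that acts on these lipid epoxides, had log2 signals of 14.53 and 14.35, and Ephx1, the microsomal enzyme better known for xenobiotics, had 13.79 and 13.86. Liver expresses both genes strongly. Hepatocyte markers were higher in the KO_A12 pool by a median of 3.71, with log2 signals of 8.22 and 15.99 for Alb, the albumin gene, and the part of this shift in the values of Ephx1 and Ephx2 was not tested.

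Most receptors were close to the background. Of the 12 measured receptors, 7 had signals of 7 or less on both arrays, and of the other 5 a difference below 0 was found for 4. Ptger3, the inhibitory prostaglandin E receptor through which adipocytes restrain lipolysis, had log2 signals of 13.98 and 13.87. The stimulatory prostaglandin E receptors parted, with 7.77 and 7.40 for Ptger2 and 8.51 and 8.76 for Ptger4. Cysltr1, a receptor for cysteinyl leukotrienes, had 9.33 and 9.05, a difference of -0.28. Apart from Ptafr, no receptor with a measurable signal differed by 1.5-fold. Under the cutoff on both arrays were the leukotriene receptors Ltb4r1 and Cysltr2 and the prostanoid receptors Ptger1, Ptgir, Ptgdr and Tbxa2r, with differences from -0.46 for Ptgir, the prostacyclin receptor, to 0.27 for Ptgdr, a prostaglandin D2 receptor. Ptgfr, the prostaglandin F receptor, was also under the cutoff, with log2 signals of 6.42 and 5.68.

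Set side by side, the 20 synthesis enzymes had a median log2 difference of -0.05 and ranged from -1.08 to 0.69, the 12 receptors had a median of -0.28 and ranged from -1.05 to 0.27, and the 9 breakdown enzymes had a median of -0.15 and ranged from -0.81 to 0.23. The classes overlapped over nearly their whole range. When only genes with a signal over 7 on both arrays were kept, the medians were -0.15 for 14 synthesis enzymes, -0.28 for 5 receptors and -0.17 for 7 breakdown enzymes. The gap between synthesis enzymes and receptors narrowed with this filter, and whether the classes differ was not tested, since genes are not replicates of a genotype. Each class held at least 1 of the 4 genes with the lowest differences, Tbxas1 and Hpgds among the synthesis enzymes, Ptafr among the receptors and Pla2g7 among the breakdown enzymes.

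**Figure D3:**
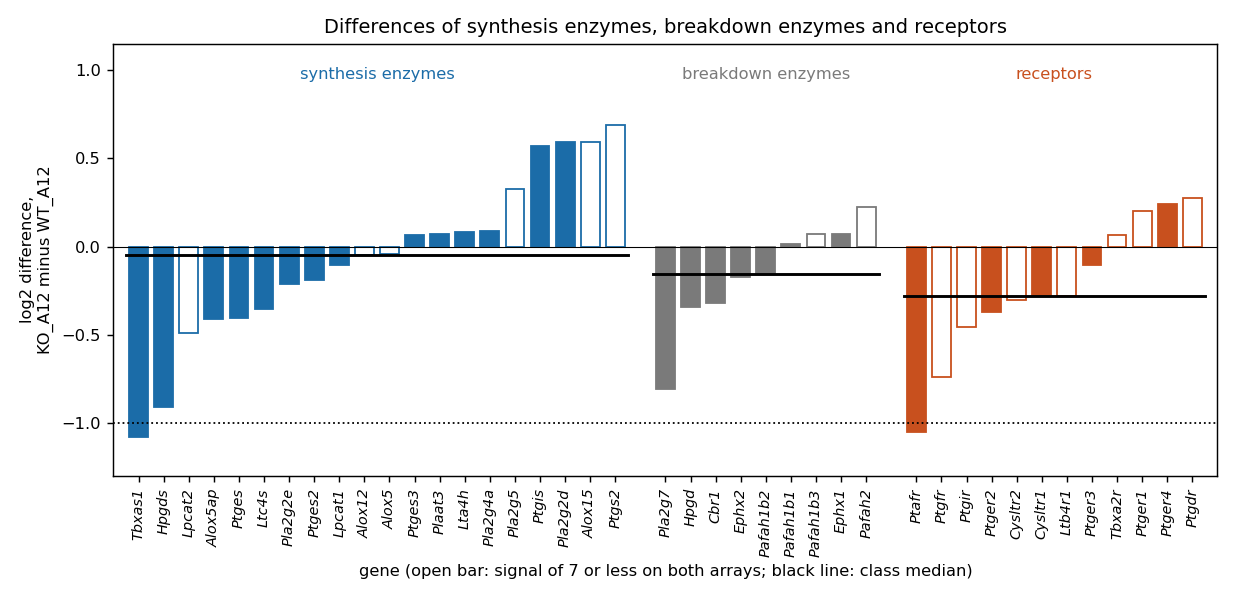
Log2 difference, KO_A12 minus WT_A12 (vertical axis), of each synthesis enzyme, breakdown enzyme and receptor (horizontal axis, ordered within its class), with open bars for genes at a signal of 7 or less on both arrays, black lines for the class medians and a dotted line at the lower 2-fold cutoff. The class medians are -0.05, -0.15 and -0.28, and the receptors hold the largest share of open bars, 7 of 12.

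The 4 lowest pathway genes, picked by their differences in these data, are known from macrophages, and macrophage markers were lower in the same pool. Pla2g2d, a gene of dendritic cells and macrophages, went the other way with a difference of 0.59. The 7 measured dendritic cell markers had a median of -0.04, and 4 had a signal of 7 or less on both arrays. Of 19 measured macrophage markers 18 had a difference below 0, with a median of -0.67, a range from -1.27 to 0.08 and all signals over 7. Their summed linear signal in the KO_A12 pool was 65.6% of that in the WT_A12 pool. Of these 19 markers, 4 were called lower (21.1%, against 0.777% of all probe sets) and 0 higher. Csf1r, the receptor of macrophage colony stimulating factor, had log2 signals of 14.49 and 13.82, and Adgre1, the F4/80 antigen, had 11.85 and 11.28, so that defining markers were present in both pools. The part of these markers' shift in the lower signals of Tbxas1, Ptafr, Hpgds and Pla2g7 was not tested. Of 12 mast cell markers 5 had a difference below 0 (median 0.17), and 7 had a signal of 7 or less on both arrays. Their summed linear signal in the KO_A12 pool was 64.6% of that in the WT_A12 pool, a sum that the strongest marker, Cpa3, the mast cell carboxypeptidase, weighs most with log2 signals of 11.66 and 10.43, while Kit had 8.95 and 9.48. Of the 12 mast cell markers 1, Cpa3, was called lower (8.33%). The part of the mast cell markers in the lower signal of Hpgds was not tested. Markers of platelets and neutrophils were mostly weak. Of 10 platelet and megakaryocyte markers 4 had a difference below 0 (median 0.16), but among the 3 with a signal over 7 on both arrays the median was -0.34. Of 12 neutrophil markers 4 had a difference below 0 (median 0.32), and the 2 with a signal over 7 on both arrays had a median of -0.05. The markers of vessel walls and of stroma, where Ptgis is known, differed in opposite directions. The 11 endothelial markers had a median of 0.34 with 10 above 0. The 10 smooth muscle and pericyte markers had a median of 0.29 with 9 above 0, 1 called lower and 1 called higher (0.777% and 0.536% of all probe sets). The 11 fibroblast and adipose progenitor markers had a median of -0.37 with 10 below 0, 2 called lower (18.2%, against 0.777% of all probe sets) and a summed signal of 83.9% of WT_A12. The 12 mesothelial markers had a median of 0.64 with 11 above 0, but 5 had a signal of 7 or less on both arrays. The 3 mesothelial markers with a signal over 7 on both arrays had a median of 0.49. The part of these lists in the Ptgis signal was not tested. The 13 white adipocyte markers had a median of 0.02, and the adipocyte genes Plaat3 and Ptger3 had differences of 0.07 and -0.11.

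**Figure D4:**
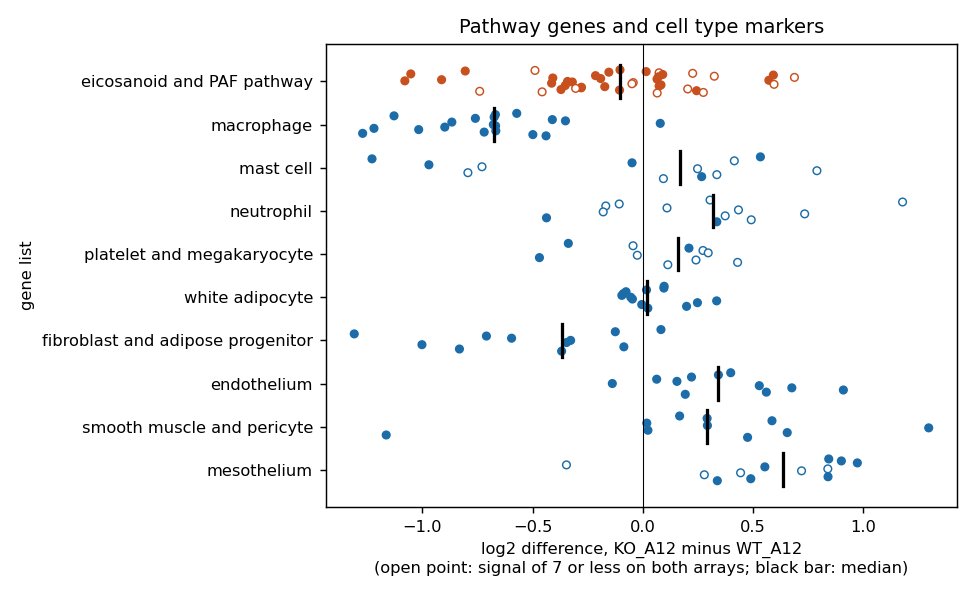
Log2 difference, KO_A12 minus WT_A12 (horizontal axis), of the 41 pathway genes and of the markers of 9 cell types (vertical axis, 1 point per gene), with open points for a signal of 7 or less on both arrays and black bars for medians. The macrophage median is -0.67, against -0.11 for the pathway genes and 0.02 for white adipocytes, and 18 of 19 macrophage markers lie below 0.

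The rest of the pathway was described by 68 further measured genes, of which 2 were called lower (2.94%, against 0.777% of all probe sets) and 0 were called higher (against 0.536%). Their median log2 difference was 0.02, with 33 below 0 (48.5%, against 50.1% of all probe sets), and 36 of them had a signal of 7 or less on both arrays. Dpep2, a membrane dipeptidase that converts leukotriene D4 to leukotriene E4, had log2 signals of 11.19 and 10.12, a KO_A12 signal of 47.4%. Akr1c18, a hydroxysteroid dehydrogenase that also acts on prostaglandins, had 7.31 and 5.66, where the KO_A12 signal was near the background median. Zadh2, a prostaglandin reductase, had signals on either side of the signal cutoff, at 7.17 and 6.37. Its difference of -0.80 was short of the 2-fold cutoff, and it was not called. Both transporters with larger differences, Abcc4, which exports prostaglandins, and Slco2b1, an organic anion carrier, had lower signals, with differences of -0.82 and -0.62.

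Several of these genes had higher signals in the KO_A12 pool. Cyp2j6, a P450 of the epoxygenase family, had log2 signals of 8.48 and 9.04, and Ephx3, another epoxide hydrolase, had 7.64 and 8.26. Prxl2b, a prostamide and prostaglandin F synthase, had a difference of 0.57, and Mgst3, a microsomal glutathione transferase related to Ltc4s, had log2 signals of 12.06 and 12.57. Cyp4f13, of the P450 family that hydroxylates leukotriene B4, was lower, at 8.78 and 8.28. The differences of Cyp2j6, Ephx3, Prxl2b, Mgst3 and Cyp4f13 lie inside the central 95% of all probe sets with a signal over 7 on both arrays. Those of Abcc4 and Slco2b1 lie inside it too. Of these further genes 5 were lower at 1.5-fold (7.35%, against 3.82% of all probe sets) and 1, Ephx3, was higher (1.47%, against 2.14%).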

How the data were processed

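The data are 2 Clariom S Mouse Arrays, 1 per genotype. Raw data were normalized by the authors with SST-RMA, which the methods spell STT-RMA, using GeneChip Console Software 1.3.0, and the deposited values are log2 signals. The submitters' processing notes name RMA, and the genome build is not given in the sources used here. Such normalization assumes that most transcripts are alike between arrays, so a shift of all transcripts would not be seen. Of 28846 rows, 6640 controls were left out. The platform annotation gave 1 symbol to 19572 of the remaining 22206 probe sets and none to 2634. The pathway genes, their roles, the marker lists and the 68 further genes were chosen with earlier results of these data known. All pathway genes are named, and of the further genes those past the cutoffs and the 10 with the largest absolute difference at a signal over 7 on at least 1 array. Promoter windows came from RefSeq (GRCm38.p6), matched by symbol for 34 of 41 genes. Median centring, quantile normalization, removal of a lowess trend (span 0.3), other cutoffs and other summaries were tried. Leaving out Plaat3, or Ptafr with Tbxas1, was added after seeing the data. The computation was tested on simulated arrays with planted changes. For arrays, their number limits the precision. Python 3.11.15, numpy 2.4.6, pandas 2.3.3, statsmodels 0.14.6 and matplotlib 3.10.9 were used.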

Additional observations from a re-analysis of the deposited data

How the results depend on the processing

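No paired analysis was possible because the study ran a single array for either genotype. With no replicates, moves of at most 0.1 in a log2 difference or median, and of at most 1.5 times in a count, were read as no move. Under the 3 scalings the differences of the 41 pathway genes did not move in 123 of 123 values, with 0 signs turned and a largest move of 0.09. Averaging all probe sets of a gene could change nothing, since each gene had 1 probe set. These scalings act on signals that the authors had already normalized and cannot undo that step. The counts of 2 lower and 0 higher genes stood under the 3 scalings and the 3 other signal cutoffs, while at 1.5-fold, which by construction admits more genes, 4 were lower and 1 was higher. Both called genes passed the cutoff of -1 only narrowly, by less than the 0.1 read as no move. Ptafr stood at -1.05 and Tbxas1 at -1.08, and at -1.01 and -1.03 after quantile normalization, while Hpgds at -0.91 fell short. The median of the synthesis enzymes moved from -0.05 to -0.15 when only genes with a mean signal over 7 were kept, since this leaves out 6 weak genes. The medians of the other classes and of all 41 genes did not move under the alternatives run. Nor did that of the 68 further genes by the same tolerance of 0.1, though it changed sign, from 0.02 to -0.08, with the same filter on mean signal. The median log2 signal of the background controls, 5.75 and 5.61, limits what can be said of the 15 pathway genes at a signal of 7 or less on both arrays.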
